A study of Mus musculus with 16 samples.

Results

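Interferon-induced genes, a group of antiviral and immune genes switched on by interferon, were examined in cells grown from the mouse coronal suture. The list held 47 genes by name, of which 43 had a probe set with 1 gene symbol, among 22180 genes measured in that way. Where a gene had several such probe sets, the brightest was used. Of the 43, 39 passed the filter on dim genes and were tested together with 13453 genes in all. Ddx60, Mx1, Mx2 and Trim30a were too dim, with mean log2 levels of 3.63, 2.48, 3.37 and 3.34. Oas1a, Dtx3l and Gbp2 were covered only by probe sets shared between genes, and Ifi44 was not analysed here.

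The study compared cells of wild-type C57BL6 mice with cells of Twist 1 +/- mice (Twist1+/-) on the same background, heterozygous for a transcription factor of the cranial sutures. Cells of each genotype were grown in DMEM with 10% FBS, penicillin/streptomycin and amphotericin, without thyroxine (control) or with thyroxine at a log10 concentration of -6 (in mol/liter). They were collected on day 3 or day 7. Each of the 8 groups, a genotype, medium and day, held 2 arrays, 1 of female and 1 of male cells, for 16 arrays in all. The 2 litters used were divided by genotype and sex before culture. The labels name no separate cultures within these, so the arrays are treated as coming from 4 cultures. Control and thyroxine arrays of the same culture and day form 8 pairs. The tests therefore measure the spread between these arrays and pairs, not between animals. The small number of arrays limits the precision, and in bulk RNA fewer cells of a type cannot be told apart from less RNA per cell.

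Interferons bind receptors on the cell surface, whose JAK kinases activate STAT proteins. STAT2 joins IRF9 and a partner STAT in a complex that binds the interferon-stimulated response element (ISRE) in the promoters of many of these genes, while interferon gamma acts mainly through STAT dimers that bind the gamma-activated sequence (GAS). The products degrade or trap viral RNA, sense foreign nucleic acid, modify proteins with the ubiquitin-like ISG15, and load peptides for antigen presentation, and most cells, macrophages among them, keep a low level of this programme without infection.

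Promoter sequences, 250 bases before to 50 after the start of a gene, were found in the RefSeq tables (GRCm38.p6) for 37 of the 47 genes. Ifit1, Ifit3, Isg15 and Bst2 are shown because they hold the ISRE letters and are among the 14 genes with the smallest p in the genotype difference in the thyroxine effect, described later. Oas3 holds the letters too and was added after its values were seen, because its wild-type male mean over both days was near that of the others. They lie at chr19:34640639-34640938 (Ifit1, plus strand), chr19:34583279-34583578 (Ifit3, plus strand), chr4:156200769-156201068 (Isg15, minus strand), chr8:71537423-71537722 (Bst2, minus strand) and chr5:120777610-120777909 (Oas3, minus strand). Each is written in the direction of its gene, 5′ to 3′, with every match to the ISRE in capitals.
Ifit1: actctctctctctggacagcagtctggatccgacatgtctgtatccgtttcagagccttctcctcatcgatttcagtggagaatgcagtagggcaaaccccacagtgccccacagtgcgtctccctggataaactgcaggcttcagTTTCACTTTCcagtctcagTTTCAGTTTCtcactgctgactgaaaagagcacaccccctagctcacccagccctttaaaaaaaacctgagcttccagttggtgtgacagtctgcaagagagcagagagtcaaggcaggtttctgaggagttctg
Ifit3: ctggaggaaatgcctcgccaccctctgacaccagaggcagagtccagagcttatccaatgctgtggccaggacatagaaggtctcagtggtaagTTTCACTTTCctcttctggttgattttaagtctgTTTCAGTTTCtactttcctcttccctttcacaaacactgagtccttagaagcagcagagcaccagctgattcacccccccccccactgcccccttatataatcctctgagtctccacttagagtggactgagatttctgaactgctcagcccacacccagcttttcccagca
Isg15: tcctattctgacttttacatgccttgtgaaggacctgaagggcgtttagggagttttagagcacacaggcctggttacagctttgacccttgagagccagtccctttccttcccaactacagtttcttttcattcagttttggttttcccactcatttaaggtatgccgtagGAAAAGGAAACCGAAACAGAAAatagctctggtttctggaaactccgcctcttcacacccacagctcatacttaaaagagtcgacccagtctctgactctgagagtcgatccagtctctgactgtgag
Bst2: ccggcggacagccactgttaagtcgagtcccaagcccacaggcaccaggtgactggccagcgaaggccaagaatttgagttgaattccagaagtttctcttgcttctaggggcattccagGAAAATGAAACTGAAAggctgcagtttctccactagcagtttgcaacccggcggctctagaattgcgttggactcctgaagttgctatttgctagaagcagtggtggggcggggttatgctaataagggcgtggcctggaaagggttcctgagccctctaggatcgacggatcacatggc
Oas3: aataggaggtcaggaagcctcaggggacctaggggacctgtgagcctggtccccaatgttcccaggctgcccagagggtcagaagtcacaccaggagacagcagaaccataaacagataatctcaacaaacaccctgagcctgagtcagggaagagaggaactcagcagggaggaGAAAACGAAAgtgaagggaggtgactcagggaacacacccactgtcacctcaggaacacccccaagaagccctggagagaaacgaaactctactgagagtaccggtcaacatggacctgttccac

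The ISRE was searched as GAAA, 2 free bases and a further GAAA, and the GAS as TTC, 3 free bases and GAA, each on both strands. The ISRE letters were found in the window of 18 of the 37 genes (48.6%), against 3.99% of the 27025 genes and 3.44% of the 32851 promoters in the table. The GAS letters were found in 9 of the 37 genes (24.3%), against 9.55% of all genes. 4 genes held both, and in 1 of them the matches overlapped. Ifit1 and Ifit3, neighbours on chromosome 19, each had 2 ISRE matches, at -104 and -85 in Ifit1 and at -156 and -122 in Ifit3, counted from the start site. Isg15 had 3 overlapping matches at -78, -72 and -66, Bst2 had 2 at -130 and -124, and Oas3 had 1 at -75. A match describes the letters of the window only.

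The targeted gene overlapped between the genotypes. Twist1 log2 levels were 6.51 to 7.34 in the Twist1+/- female culture, 6.94 to 7.55 in the Twist1+/- male culture and 6.97 to 7.70 in the wild-type female culture, and 6.07 to 6.54 in the wild-type male culture, which was lowest. Whether its probe set covers the altered part of the gene is not given here. Of the mesenchymal and suture markers 11 of 11 measured were above the filter, and 17 of 17 measured macrophage markers were above it too. Above it were also 5 of 8 osteoclast, 3 of 5 endothelial (Pecam1, Cdh5 and Kdr), 2 of 8 T and NK cell (Cd3e and Nkg7) and 2 of 5 plasmacytoid dendritic cell markers (Tcf4 and Cox6a2). Of the 4 B cell and 6 neutrophil markers measured, 0 were above it. The wild-type male culture stood apart from the other 3 cultures in both marker lists and in the interferon-induced genes, so the comparisons that draw on it are also given without it.

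The most prominent feature of the interferon-induced genes was their low level in the wild-type male culture. Averaged over the 39 genes, the log2 level there was 5.67 to 5.72 on day 3 and 5.74 to 6.20 on day 7. It was 6.85 to 6.94 and 6.90 to 6.99 in the wild-type female culture. In the Twist1+/- female culture it was 6.22 to 6.34 on day 3 and 6.89 to 6.91 on day 7, and in the Twist1+/- male culture 6.66 to 6.83 and 6.92 to 7.02. On each day both wild-type male arrays thus lay below the other 6. Of the 39 genes, 37 had a lower mean in this culture than in the other 3, with a median difference of -0.83. In 16 of the 39 all 4 of its arrays lay below all 12 others, against 5.29% of all tested genes. Both arrays of the culture lay below the other 6 in 24 of the 39 genes on day 3 (18.0% of all tested genes) and in 35 on day 7 (13.3%). This is a description of 1 culture against 3, and it has no test.

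**Figure D1:**
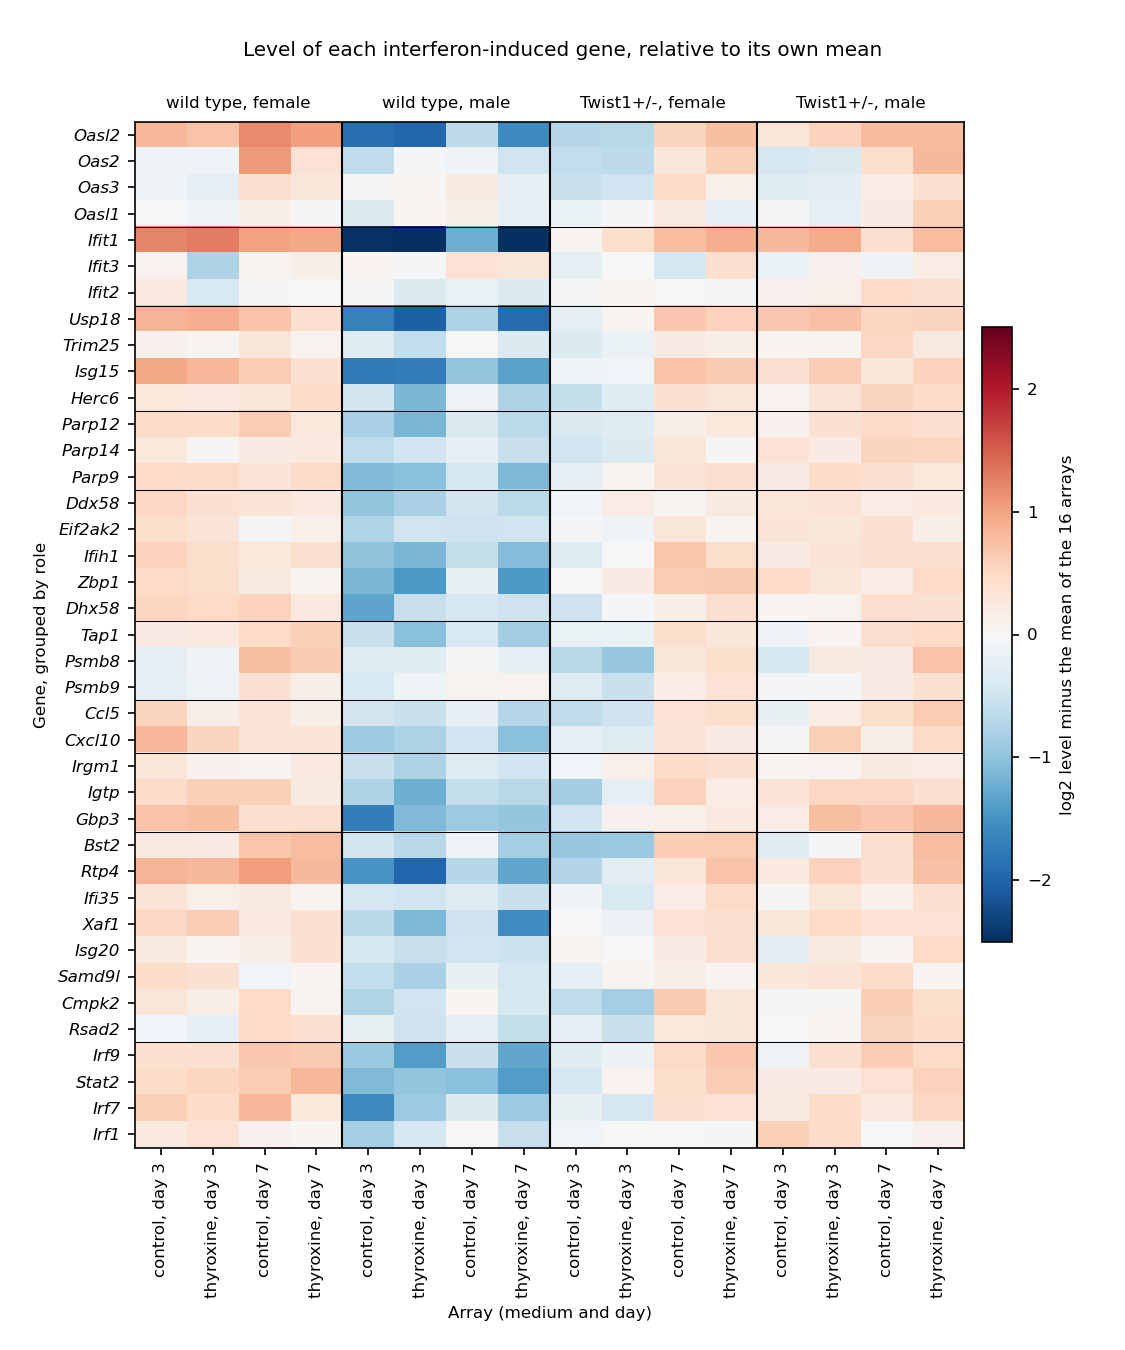
Log2 level of the 39 tested interferon-induced genes (rows, grouped by role) in the 16 arrays (columns, by culture, medium and day), relative to the mean of each gene; values beyond the ends of the colour bar take its end colour. The 4 wild-type male arrays are blue in most rows, with Ifit3 and Oas3 as exceptions, and the day 3 arrays of the Twist1+/- female culture are pale blue in many.

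The effectors showed the widest gaps. Ifit1, which binds viral RNA that lacks the host cap, measured 5.70 (control) and 5.07 (thyroxine) on day 3 and 6.96 and 5.47 on day 7 in wild-type male cells. The other 12 arrays ran from 8.23 to 9.45 with a median of 9.03. The groups did not overlap, and the mean difference was -3.17. Ifit3, its close relative, was not low there: the 4 arrays ran from 5.52 to 5.94 and the others from 4.80 to 6.00, a mean difference of 0.22. Ifit2 differed by -0.30 with overlap. Ifit3 has a near-identical neighbour, Ifit3b, and whether its RNA also binds these probes was not tested. Ifit1 and Ifit3 both hold the ISRE letters, as printed above, and Ifit1 alone of them was below the other arrays.

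ISG15 and its enzymes followed Ifit1. Isg15, the ubiquitin-like modifier, measured 5.07 and 5.11 on day 3 and 5.86 and 5.50 on day 7 in wild-type male cells, and 6.72 to 7.78 elsewhere. Usp18, the protease that removes ISG15 and restrains the interferon receptor, measured 5.65, 5.30, 6.57 and 5.42 there and 7.09 to 8.25 elsewhere. Neither overlapped, with mean differences of -1.94 and -2.14. Herc6, the ISG15 ligase of the mouse, and Trim25, a ubiquitin ligase that acts on the RIG-I pathway, differed by -0.83 and -0.43 and overlapped.

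The oligoadenylate synthetases, which make the second messenger that activates RNase L, were split. Oasl2, a family member, measured 5.95, 5.88, 7.19 and 6.24 in wild-type male cells against 7.12 to 9.01 elsewhere, a difference of -2.03 with 1 array inside the range of the others. Oas3 ran from 5.20 to 5.64 there and 4.85 to 5.88 elsewhere, a difference of 0.03. That mean joins opposite days: Oas3 differed by 0.358 on day 3 and by -0.303 on day 7. Oas2 and Oasl1 differed by -0.42 and -0.12 with overlap, and by day Oas2 differed by 0.045 on day 3 and -0.893 on day 7. Among the sensors, Ifih1 (MDA5) and Ddx58 (RIG-I), which detect viral RNA, lay below all other arrays, with differences of -1.27 and -0.98. Zbp1, a sensor of Z-form nucleic acid, and Eif2ak2 (PKR), the RNA-activated kinase that halts translation, did so too, at -1.39 and -0.75. Dhx58 (LGP2) differed by -0.95 with overlap.

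The transcription factors that drive these genes were low as well. Irf9 and Stat2, the parts of the ISRE-binding complex, ran from 6.15 to 6.99 and from 6.13 to 6.54 in wild-type male cells, and from 7.26 to 8.23 and from 7.08 to 8.36 elsewhere, with no overlap. Their mean differences were -1.40 and -1.51. Irf7, which amplifies type I interferon, differed by -1.25 and Irf1 by -0.60, both with overlap. Of the genes outside these groups, Gbp3, a GTPase that attacks microbe-containing vacuoles, ran from 3.00 to 3.83 against 4.26 to 5.56, and Rtp4 from 5.89 to 7.15 against 7.13 to 8.91. Gbp3 thus did not overlap, and Rtp4, which restricts some RNA viruses, overlapped in 1 array. Every wild-type male value of Gbp3 lay below the filter level of 3.905, so its comparisons with that culture rest on dim signal. The antigen processing genes were split: the immunoproteasome subunits Psmb8 and Psmb9 differed by -0.29 and -0.10, while the peptide transporter Tap1 differed by -0.95 without overlap. By day Psmb8 differed by 0.063 on day 3 and by -0.648 on day 7.

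Promoter matches and the low level were set side by side for the 31 tested genes with a promoter in the table. The 14 with the ISRE letters had a median wild-type male difference of -1.03, with 9 not overlapping, and the 17 without had -0.68, with 4 not overlapping. Of all tested genes 5.29% did not overlap in this way. Both medians were below 0, and no test of their difference was made.

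Marker genes moved differently in the same arrays. The mean log2 level of the 17 macrophage markers on day 3 was 9.38 to 9.43 in wild-type male cells, against 7.62 to 8.45 in the other cultures, and on day 7 it was 9.42 to 9.78 against 9.37 to 9.66. The median difference of the 17 markers, wild-type male cells minus the others, was 1.33 on day 3 and 0.06 on day 7. On day 7 they had no common direction and ran from -0.622 (Cx3cr1) to 0.517 (Adgre1). The 11 mesenchymal and suture markers averaged 8.22 to 8.37 in wild-type male cells and 9.08 to 9.43 elsewhere. In 9 of the 11 the 4 arrays lay below all others, against 5.29% of all tested genes. Lum, Dcn and Postn, genes of the fibroblast matrix, had the largest differences, -2.51, -2.20 and -1.74. The exceptions were Msx2, at 0.342 on day 3 and 0.302 on day 7, and Twist2, at -0.418 and 0.452. The low interferon-induced genes thus accompanied high macrophage markers on day 3 and low levels of most mesenchymal markers on both days. The part of either in the result was not tested. Fcgr1 is both a macrophage marker here and an interferon-induced gene.

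**Figure D2:**
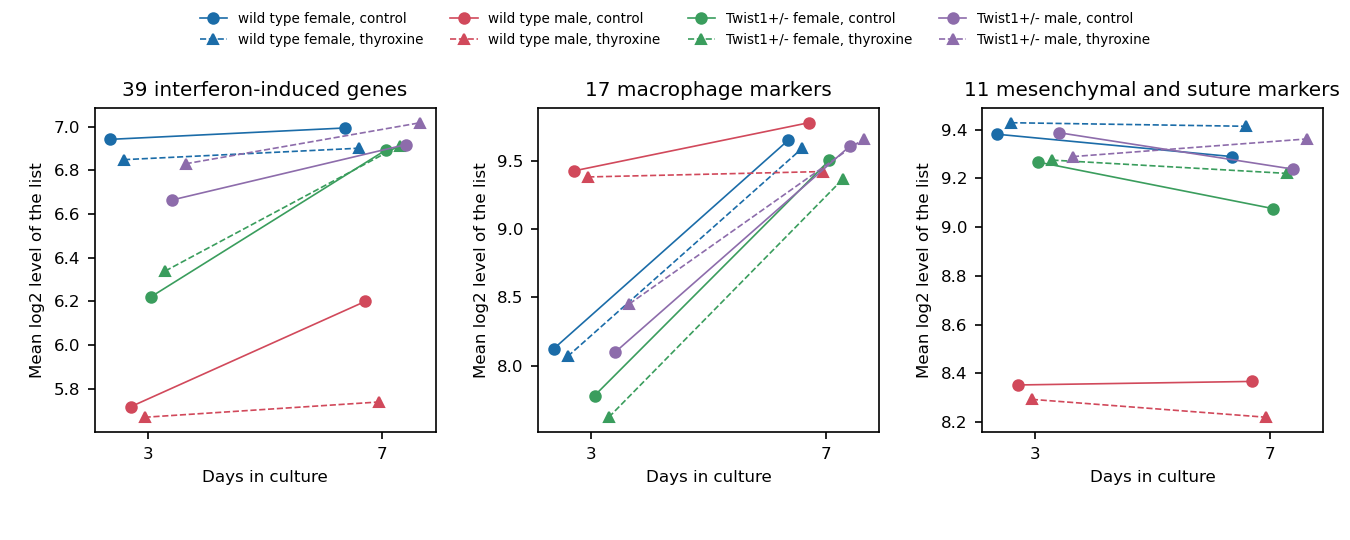
Mean log2 level of 39 interferon-induced genes, 17 macrophage markers and 11 mesenchymal and suture markers in each array, by days in culture (points are shifted sideways to separate the cultures; lines join arrays of 1 culture and medium). Wild-type male cells lie lowest in the first and last panel and, on day 3, highest in the middle panel at 9.38 to 9.43.

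The pairs allow the thyroxine effect itself to be compared between the genotypes. Most interferon-induced genes had a lower value with thyroxine in wild-type cells and a higher one in Twist1+/- cells, but none passed the threshold. The difference between the thyroxine effects (Twist1+/- minus wild type) was above 0 for 37 of the 39 genes, with a median of 0.27, while 56.9% of all tested genes lay below 0 and their median was -0.03. No member had an adjusted p under 0.05 (limma, Benjamini-Hochberg over all tested genes), while 8 of all tested genes (0.0595%) did. At an unadjusted p under 0.05, 12 members were higher (3.72% of all tested genes) and 0 were lower (5.81%). By day, 31 of 39 differences were above 0 on day 3 (median 0.25, with 48.1% of all tested genes below 0) and 35 on day 7 (median 0.30, with 58.6% below 0). At an unadjusted p under 0.05, 7 were higher on day 3 (2.13%) and 12 on day 7 (3.72%), and 0 were lower on either (2.21% and 8.96%). With the other 3 cultures alone 34 of 39 were above 0 with a median of 0.21, and 4 members were higher at an unadjusted p under 0.05 (1.65% of all tested genes). The smallest adjusted p was then 0.999. By day these cultures gave 35 of 39 above 0 on day 3 (median 0.20) and 28 on day 7 (median 0.115). Of all tested genes 55.7% lay below 0 over both days, 48.5% on day 3 and 57.7% on day 7. Wild type is then only the female culture, with a single pair on each day, so genotype is mixed with culture and sex. Each gene's own spread comes from the Twist1+/- pairs alone, so the p-values cannot stand for a comparison of genotypes. The same limit holds for every later thyroxine comparison without the wild-type male culture. The macrophage markers lay on the same side: 13 of 17 were above 0 with a median of 0.155, and 11 of 17 with a median of 0.12 without the wild-type male culture, and their part in the result was not tested.

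**Figure D3:**
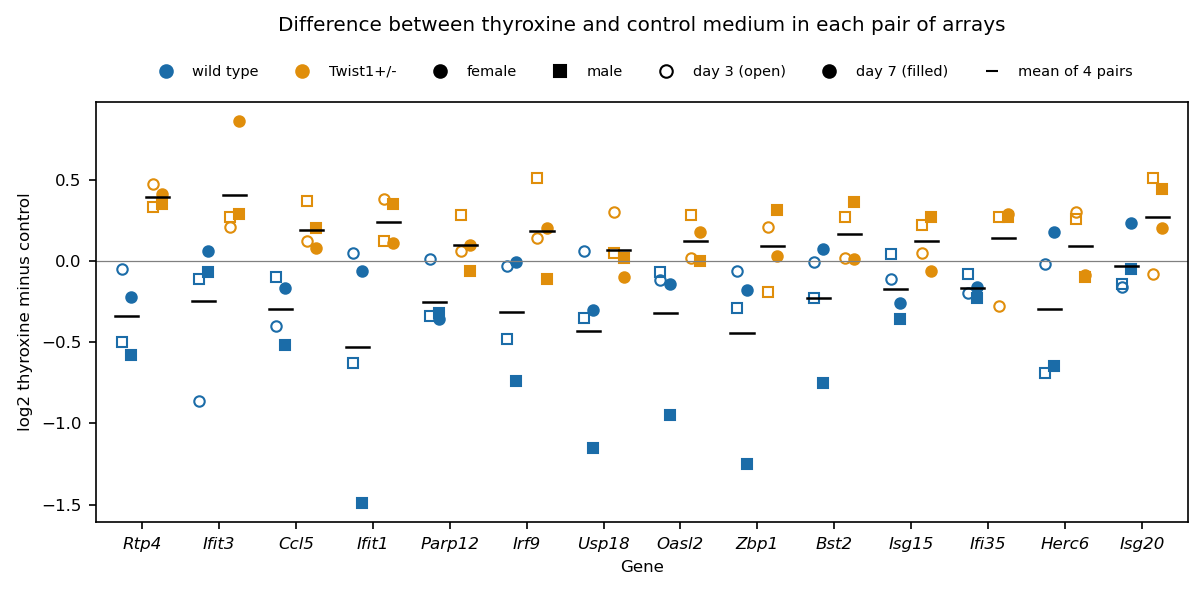
Thyroxine minus control (log2) in each of the 8 pairs for the 14 genes with the smallest p in the genotype difference; colour marks genotype, shape sex, filling day, and the black bar the mean of 4 pairs. For Rtp4, Ifit3, Ccl5, Ifit1 and Oasl2 the wild-type points lie all below the Twist1+/- points.

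Rtp4 had the smallest p. In control medium it measured 8.73 (female) and 6.39 (male) on day 3 and 8.91 and 7.15 on day 7 in wild-type cells, and in thyroxine 8.68, 5.89, 8.69 and 6.57 in the same order. In Twist1+/- cells the control values were 7.13, 8.12, 8.18 and 8.26 and the thyroxine values 7.60, 8.45, 8.59 and 8.61. Every wild-type pair was lower with thyroxine and every Twist1+/- pair higher, and the effects differed by 0.73 (SE 0.13, adjusted p = 0.071, limma with Benjamini-Hochberg adjustment). Leaving out the wild-type male culture gave 0.53 (SE 0.14). The adjusted p ran from 0.021 to 0.999 over the other settings tried, with 3 of 18 under 0.05.

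Ifit1 had the largest difference of the 39 genes. Thyroxine minus control for Ifit1 was 0.05 (female) and -0.63 (male) on day 3 and -0.06 and -1.49 on day 7 in wild-type cells, and 0.38, 0.12, 0.11 and 0.35 in Twist1+/- cells. The wild-type values were all below the Twist1+/- values, but the largest came from the male day 7 pair. The effects differed by 0.77 (SE 0.24, adjusted p = 0.403), and by 0.25 (SE 0.15) without the wild-type male culture. For Ifit3 the pairs gave -0.86, -0.11, 0.06 and -0.07 in wild-type cells and 0.21, 0.27, 0.86 and 0.29 in Twist1+/- cells. This gave a difference of 0.65 (SE 0.19, adjusted p = 0.367), and of 0.81 without the wild-type male culture. Ifit2 differed by 0.27, and by 0.29 without that culture.

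Ccl5, a chemokine that draws T cells and monocytes, joined Rtp4 in having opposite signs in all pairs, a pattern of 2 of the 39 genes and 0.364% of all tested genes. Its pairs gave -0.40, -0.10, -0.17 and -0.52 in wild-type cells and 0.12, 0.37, 0.08 and 0.20 in Twist1+/- cells. The effects differed by 0.49 (SE 0.15, adjusted p = 0.384), and by 0.48 without the wild-type male culture. Cxcl10, which draws the same cells through another receptor, differed by 0.36, and by 0.32 without it. The wild-type pairs lay all below the Twist1+/- pairs for 5 of the 39 genes, Ifit1, Ifit3, Oasl2, Rtp4 and Ccl5, against 1.31% of all tested genes, and in the reverse order for 0 (2.24%).

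The other genes with an unadjusted p under 0.05 spread over the roles. Irf9 differed by 0.50 (adjusted p = 0.424) and Usp18 by 0.50 (adjusted p = 0.425), and without the wild-type male culture by 0.21 and 0.19. Zbp1 differed by 0.54 (adjusted p = 0.444), and by 0.21 without that culture. Bst2 (tetherin), which holds budding virus on the cell, differed by 0.40, and by 0.14 without it. Isg15 differed by 0.29 and Ifi35 by 0.31, and both kept that size at 0.31 and 0.32. Parp12, an antiviral ADP-ribosyltransferase, differed by 0.35 and Oasl2 by 0.44, and by 0.27 and 0.25 without the culture. Leaving it out thus moved Ifit1, Irf9, Usp18, Zbp1, Bst2 and Oasl2 by over 1.5 times. Of the roles, the median difference was largest for the 3 IFIT genes (0.65) and smallest for the 5 RNA and DNA sensors (0.19). Both ends changed without the wild-type male culture, when the 2 chemokines had the largest median (0.40), the 3 ADP-ribosyltransferases the smallest (0.075), the IFIT genes 0.29 and the sensors 0.21. Only 2 members lay below 0, Eif2ak2 at -0.22 and Psmb9 at -0.005.

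Within wild-type cells 34 of the 39 genes were lower with thyroxine, with a median effect of -0.17 and 49.3% of all tested genes below 0. No member passed the adjusted threshold (0.0149% of all tested genes did), and at an unadjusted p under 0.05, 11 were lower (2.99%) and 0 higher (2.6%). In 8 genes all 4 wild-type pairs were lower (6.33%), and in 0 all were higher (6.5%). The wild-type male pair of day 7 weighed most: 37 of the 39 genes were lower in it (45.8% of all tested genes), and its mean over the list was -0.46. The other wild-type pairs had 27 (female, day 3), 22 (male, day 3) and 24 (female, day 7) genes lower, against 50.4%, 50.6% and 49.3% of all tested genes. In that male day 7 pair 17 of 17 macrophage markers were lower as well, with a median of -0.41, and the part of this in the result was not tested. Without the wild-type male culture 26 of the 39 genes were below 0 (50.4% of all tested genes), with a median of -0.11, and 3 were lower at an unadjusted p under 0.05 (1.56%).

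Within Twist1+/- cells 29 of the 39 genes were higher with thyroxine, with a median effect of 0.09, while 59.4% of all tested genes were lower. No member passed the adjusted threshold (0.201% of all tested genes did), and at an unadjusted p under 0.05, 6 were higher (3.27%) and 0 lower (7.11%). The 6 were Rtp4 (0.39), Ifit3 (0.41), Gbp3 (0.35), Isg20 (0.27), an exonuclease that degrades viral RNA, Psmb8 (0.27) and Stat2 (0.23). In 7 genes all 4 pairs were higher (4.53%). The genes lower with thyroxine numbered 11 (female) and 6 (male) on day 3 and 18 and 14 on day 7, against 53.2%, 45.7%, 57.5% and 58.6% of all tested genes. The macrophage markers had no common direction in these pairs: their median was -0.23 and 0.28 on day 3 and -0.13 and 0.06 on day 7 in female and male cells.

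Over all 8 pairs the opposite signs left little. Of the 39 genes 28 were below 0 (57.9% of all tested genes) with a median of -0.05, and none passed the adjusted threshold (0.0966% of all tested genes did). At an unadjusted p under 0.05, 3 were lower (3.96%) and 1 higher (2.17%). Gbp3 had the smallest p, with pairs of 0.03, 0.64, -0.01 and -0.07 in wild-type and 0.58, 0.57, 0.10 and 0.16 in Twist1+/- cells and a mean of 0.25 (SE 0.09, adjusted p = 0.749). Its wild-type male values were all below the filter level of 3.905. Trim25, Cmpk2, a mitochondrial nucleotide kinase, and Usp18 followed at -0.14, -0.18 and -0.18. With the other 3 cultures alone 20 of the 39 were below 0 (57% of all tested genes), with a median of -0.005.

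The next comparison was of the thyroxine effect on day 7 with that on day 3. It was lower on day 7 for 32 of the 39 genes, with a median of -0.16 (55.3% of all tested genes below 0), and 0 members passed the adjusted threshold (0.00743% did). At an unadjusted p under 0.05, 0 were higher (2.22%) and 3 lower (3.16%), Usp18 at -0.40, Gbp3 at -0.41 and Igtp, an immunity-related GTPase, at -0.37, each with an adjusted p of 0.896. In wild-type cells 31 of 39 were below 0 with a median of -0.175 (46.5% of all tested genes below 0), 4 of them at an unadjusted p under 0.05 (2.08%). The Twist1+/- count was 28 with a median of -0.11 (58.6%), 1 at an unadjusted p under 0.05 (6.06%), and in either genotype 0 were higher at that p (2.48% and 2.47%). Without the wild-type male culture the wild-type comparison gave 18 of 39 below 0 (48.3% of all tested genes) and a median of 0, so the wild-type shift rested on that culture. Over both genotypes the other 3 cultures gave 25 of 39 below 0 and a median of -0.06, against 55.4% and -0.025 for all tested genes. Ifit3 went the other way, at 0.41 over both genotypes.

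In control medium the order of the cultures was much the same for most members on day 3. The wild-type female culture was highest of the 4 for 33 of the 39 genes (23.1% of all tested genes), and the wild-type male culture lowest for 30 (36.3%). On day 7 the wild-type male culture was lowest for 36 (28.7%) and the wild-type female culture highest for 19 (18.8%). On day 7 the Twist1+/- male culture was highest for 10 (37.8%) and the Twist1+/- female culture for 8 (17.7%). The 2 wild-type cultures thus lay at opposite ends on day 3, while on day 7 the wild-type male culture was lowest and no single culture was highest for most members.

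The genotype comparison in control medium turned on the wild-type male culture. With all cultures 33 of the 39 genes were higher in Twist1+/- cells, with a median of 0.21 (40.4% of all tested genes below 0), and 0 passed the adjusted threshold (0.0% of all tested genes did). The counts at an unadjusted p under 0.05 were 0 higher (3.3%) and 1 lower (1.45%), Ifit3 at -0.38. Without the wild-type male culture 38 of the 39 were lower in Twist1+/- cells, with a median of -0.38 (45.1% of all tested genes below 0), and 5 passed the threshold (1.04% of all tested genes). These were Rtp4 (-1.14), Oasl2 (-1.09), Gbp3 (-0.74), Oas2 (-0.65) and Parp12 (-0.65). With sex in the fit, that comparison rests on the 2 female cultures, 1 of each genotype, so its p-values measure the spread between arrays of a culture and are too small for a comparison of genotypes. Eif2ak2 and Zbp1 changed sign, from 0.46 to -0.07 and from 0.48 to -0.03, and Irgm1, a GTPase of autophagy, went from 0.30 to 0.03.

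**Figure D4:**
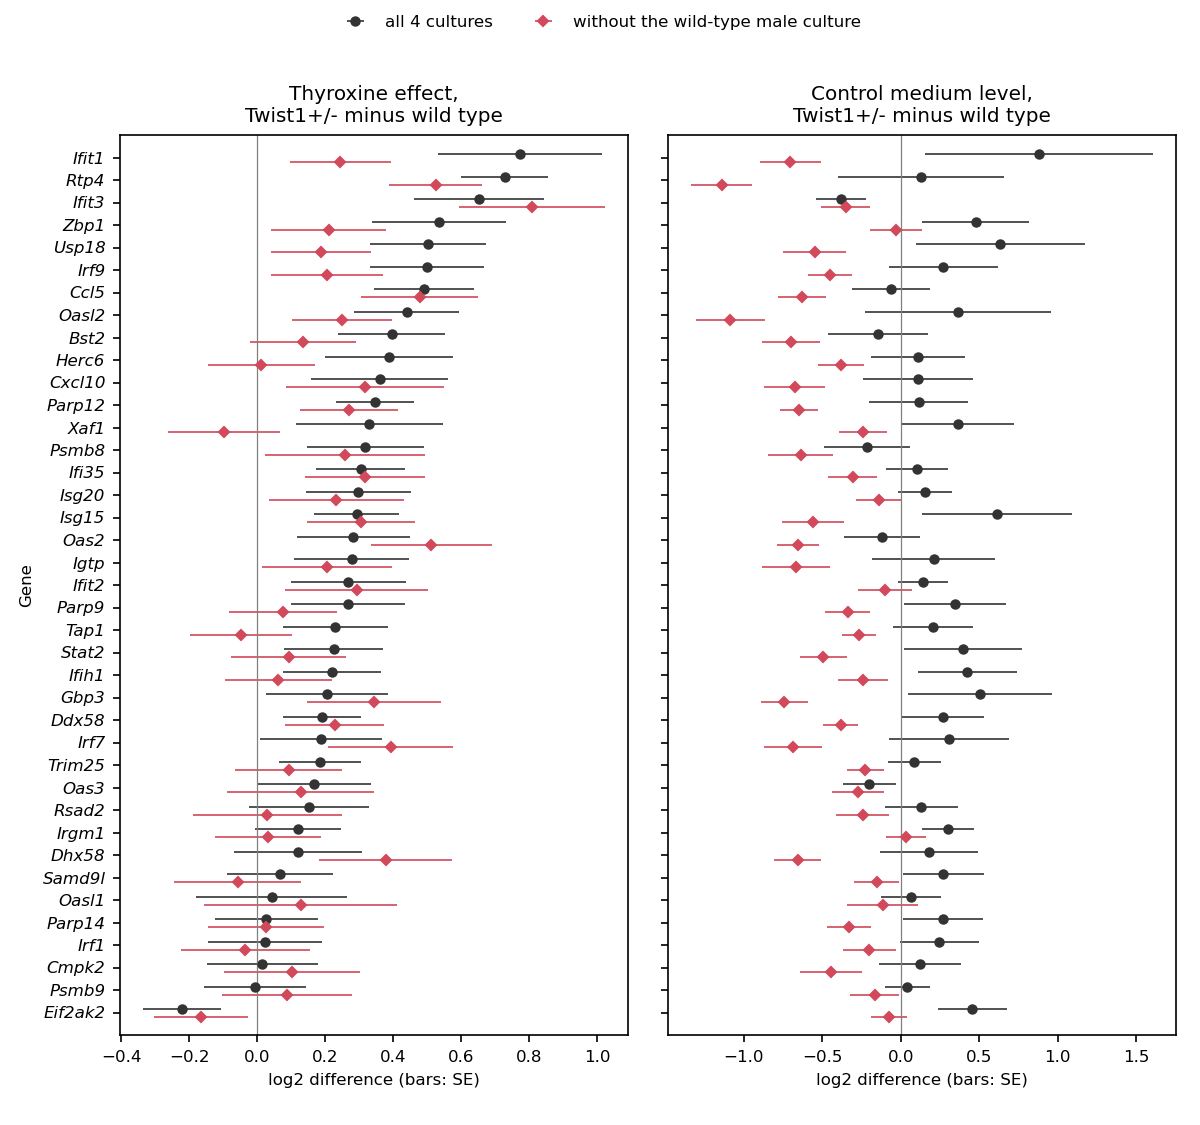
Difference between the genotypes (Twist1+/- minus wild type, log2, with SE bars) for each of the 39 genes, in the thyroxine effect (left) and in the level in control medium (right), with all 4 cultures (dark) and without the wild-type male culture (red). The thyroxine effect difference lies above 0 for 37 genes with all cultures and for 34 when wild type is the female culture alone. The level in control medium lies above 0 for 33 genes with all cultures and below 0 for 38 without the wild-type male culture.

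The sex comparison turned on the same culture. Of the 39 genes 34 were lower in male cells, with a median of -0.38 (47.6% of all tested genes below 0). None passed the adjusted threshold (0.0669% of all tested genes did), and at an unadjusted p under 0.05, 0 were higher (5.9%) and 12 lower (3.81%), among them Ifit1 at -1.65 (SE 0.60, adjusted p = 0.486). With that culture left out 36 of 39 were higher in male cells (56.6% of all tested genes), with a median of 0.23, and 2 passed (1.67% of all tested genes), Gbp3 at 0.61 and Parp14 at 0.55. That fit compares 1 male with 1 female culture, both Twist1+/-, so its p-values too are too small for a comparison of the sexes. The direction of the sex comparison was thus that of 1 culture.

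A few members rose with time in culture. In control medium 38 of the 39 genes were higher on day 7 than on day 3, with a median of 0.38 (51.1% of all tested genes below 0), and 3 rose past the adjusted threshold, 7.69% of the members against 7.96% of all tested genes in either direction, so the share was near the background. At an unadjusted p under 0.05, 8 were higher (11.9%) and 0 lower (10.2%). In control medium Oas2 measured 5.53, 5.01, 5.04 and 5.24 on day 3 (wild-type female and male, then Twist1+/- female and male cells) and 6.71, 5.54, 5.93 and 6.10 on day 7. The days did not overlap, and Oas2 rose by 0.87 (SE 0.20, adjusted p = 0.020). Oas3 measured 5.31, 5.43, 4.85 and 5.09 on day 3 and 5.83, 5.64, 5.88 and 5.59 on day 7 in the same order, and rose by 0.57 (SE 0.14, adjusted p = 0.027). Psmb9 measured 5.18, 5.06, 5.10 and 5.40 and then 5.81, 5.52, 5.61 and 5.63, and rose by 0.46 (SE 0.12, adjusted p = 0.032). Neither overlapped between days. Cmpk2, at 0.74 (adjusted p = 0.055), did not pass.

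The 3 calls changed when single pairs were left out. Over all settings the count over all tested genes moved as well, from 1 to 1945. The member counts that follow were not set against it pair by pair, so they are not read as a result about these genes. No member passed without the Twist1+/- female pair of either day or without the Twist1+/- male pair of day 7, 1 passed without the wild-type female pair of either day, and 6 passed without the wild-type male pair of day 7. Without the whole wild-type male culture 8 passed, the 3 named and Bst2, Psmb8, Irf9, Rsad2 and Tap1, or 20.5% of the members against 14.5% of all tested genes. Rsad2 (viperin) blocks the replication of many viruses.

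The change with time differed in size between cultures, as a description. The median day 7 minus day 3 difference in control medium was 0.00 for the wild-type female culture (19 of 39 higher, 42.8% of all tested genes) and 0.42 for the wild-type male one (36, 48.5%). It was 0.61 for the Twist1+/- female culture (38, 48.4%) and 0.21 for the male one (33, 54.4%). In thyroxine the medians were 0.01, 0.06, 0.52 and 0.14 in that order, with 20, 23, 35 and 28 genes higher (42.4%, 51.9%, 45.3% and 44.1%). The macrophage markers shifted by medians of 1.45, 0.37, 1.81 and 1.56 in control medium in the same order, and 16 of the 17 rose past the adjusted threshold over all cultures. In the wild-type female culture, where the macrophage markers shifted by 1.45, the interferon-induced genes had a median of 0.00 and ran from -0.54 to 1.18. Oas2, Oas3 and Psmb9, the 3 genes past the threshold, each rose in it, as their values above show. The part of macrophages in these 3 genes was not tested. In 18 of the 39 genes all 4 cultures were higher on day 7 (13.6% of all tested genes).

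The wider interferon pathway was followed through 129 tested genes of 5 lists. Of the ligands 7 were tested and 12 were too dim, Ifnb1 at a mean log2 level of 2.34 and Ifng at 3.76 among them. In the genotype difference 5 of the 7 tested ligands lay below 0, as did 56.9% of all tested genes. Ifna14, an interferon alpha, was above at 0.76 (adjusted p = 0.324), with wild-type pairs of -0.11, 0.23, -0.47 and -0.20 and Twist1+/- pairs of 0.52, -0.19, 1.10 and 1.07. Without the wild-type male culture it was at 0.92. The interferon alpha genes resemble one another, so their probe sets cannot be assigned to a gene with certainty. No gene of the 5 lists passed the adjusted threshold in the genotype difference, with all cultures or without the wild-type male one.

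The receptors were among the brighter genes. Ifnar1 and Ifnar2, the receptor of type I interferon, had mean log2 levels of 8.68 and 8.50 and genotype differences in the thyroxine effect of -0.01 and 0.13, and Ifngr1 and Ifngr2, the receptor of interferon gamma, 8.16 and 8.90 with differences of 0.25 and 0.00. The counts that follow for change with time stand against 7.96% of all tested genes, and the macrophage markers rose by a median of 1.29 in the same comparison, 16 of 17 past the threshold. Their part in these changes was not tested. In control medium 3 of the 5 tested receptors rose from day 3 to day 7, Ifnar2 by 0.53, Ifngr1 by 0.42 and Il10rb by 0.67. Among the 12 genes of JAK-STAT signalling and its inhibitors the median genotype difference was 0.03, with Socs3, a feedback inhibitor, at 0.41 (adjusted p = 0.431), and at 0.31 without the wild-type male culture. Over time 2 of the 12 rose, Ptpn6, a phosphatase of blood cells, by 1.00 and Pias1, a SUMO ligase that restrains STAT proteins, by 0.46.

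Of the 21 genes of upstream sensing, 14 had a genotype difference above 0 (median 0.10), while 56.9% of all tested genes lay below 0. With time 5 rose, led by the endosomal receptors Tlr8 (2.06), Tlr7 (1.63) and Tlr9 (1.17), with Irf8 (1.07) and Irf2 (0.45). The macrophage markers moved by a similar amount (median 1.29), and 7.96% of all tested genes passed. The 84 other interferon-induced genes tested had 50 genotype differences above 0 with a median of 0.11. At an unadjusted p under 0.05, 15 of the 84 were higher (3.72% of all tested genes) and 4 lower (5.81%), compared with 12 and 0 of the 39 members. Without the wild-type male culture the median was 0.08, against -0.0275 for all tested genes. H2-T23, a nonclassical class I molecule, had the smallest p, with wild-type pairs of -0.38, -0.40, -0.57 and -0.63 and Twist1+/- pairs of 0.00, 0.23, 0.09 and 0.89. The pairs of the genotypes did not overlap, and the difference was 0.80 (SE 0.17, adjusted p = 0.165), and 0.78 without the wild-type male culture. H2-K1, a classical class I molecule, and Slfn2, which guards T cell quiescence, had differences of 0.42 and 0.47, and of 0.25 and 0.32 without it. Over time 13 of the 84 rose, against the same 7.96%, among them Ms4a6d (1.79), Fcgr1 (1.57), Casp1 (1.33) and Slfn2 (1.26). Fcgr1 is itself 1 of the 17 macrophage markers. The counts that follow are of either direction, and among the 84 they include genes that fell, Parp3 at -0.39 and Apol9a at -0.53. In the other 3 cultures, where 14.5% of all tested genes passed, the genes past the threshold numbered 3 of 5 receptors, 2 of 12 in JAK-STAT signalling, 8 of 21 in upstream sensing and 23 of the 84.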

How the data were processed

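RNA of 16 samples was measured on a whole-transcript Affymetrix array (100 ng labelled per array, per the labels' protocols). The deposited values are log2 levels of probe sets that the authors obtained by RMA; the submitters' processing notes name Affymetrix Expression Console. No version, build or annotation release is given here. RMA gives all arrays 1 distribution, so a shift of all genes cannot be seen and dim genes are compressed. The array medians ran from 3.73 to 3.86.

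Of 41345 probe sets, 23521 had 1 gene symbol in the platform annotation, 1814 had several and 16010 none, and genes were named from the first kind alone. By Entrez identifier 23328 of these had a current symbol, and 0 differed. The brightest probe set of each of 22180 genes was kept, and 13453 were tested, those whose mean reached 3.905 (percentile 40 of the named probe sets).

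Tests used limma 3.58.1 and R 4.3.3 (two-sided moderated tests after lmFit and eBayes, with the variance following brightness) and Benjamini-Hochberg adjustment over all tested genes and a threshold of 0.05. Thyroxine effects were fitted with the pair of arrays of 1 culture and day as a fixed block (4 residual degrees of freedom). Pairs come from the labels: same genotype, sex and day. Levels in control medium and sex were fitted with group means and culture as a random block (statmod 1.5.0, correlation 0.202). The labels do not say if the 3 wells per condition were pooled. The fits were tested on simulated data.

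The genes given with full values were the up to 14 with the smallest p in the genotype difference in the thyroxine effect, and the up to 4 in each of the other main comparisons; genes named by their difference in the wild-type male culture, and those of the pathway lists, were chosen after their values were seen. The list and the roles were chosen with earlier results of these data known. Promoters and motifs came from RefSeq tables. Alternatives covered the filter, the probe set, the scaling, the blocks, the variance model and leaving out pairs or the wild-type male culture.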

Additional observations from a re-analysis of the deposited data

Results flagged for a closer look

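For 2 genes all 4 wild-type pairs were lower with thyroxine and all 4 Twist1+/- pairs higher. The difference between the genotypes was 0.73 (0.728) for Rtp4 and 0.49 for Ccl5 (limma, adjusted p = 0.071 and 0.384). The mean over the 39 interferon-induced genes had the same split, with a genotype difference of 0.274, and that difference of the list mean was not tested.

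Dixon's criterion for 4 values, a gap of at least 0.829 of the range, was met by 1 pair in 5 of the 23 genes given in full and in the list mean. Chance does so for about 1 in 20 groups, and each gene had 2 groups. In wild-type cells Gbp3 was high in the male pair of day 3 at 0.64, Oasl2 was low in the male pair of day 7 at -0.95, and Parp12 was high in the female pair of day 3 at 0.01. Both Gbp3 values of that male pair were below the filter level of 3.905. In Twist1+/- cells Ifi35 was low in the female pair of day 3 at -0.28 and Ifit3 was high in the female pair of day 7 at 0.86. The list mean was low in the wild-type male pair of day 7 at -0.46.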

How the results depend on the processing

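Of 530 recomputed values of the genes given in full, 500 kept their direction and side of the threshold, 8 gained it, 20 lost it and 2 changed sign (Eif2ak2 to -0.0725 and Zbp1 to -0.03 in the genotype comparison in control medium without the wild-type male culture). The 20 lost calls were those of Oas2, Oas3 and Psmb9 between days, whose adjusted p ran from 0.000158 to 0.146, from 0.0108 to 0.183 and from 0.0205 to 0.193 over the settings. In that comparison 3 members passed as reported, 1 with no culture block, 5 with the stricter filter, 8 without the wild-type male culture, and 0 to 6 when 1 pair was left out. Without the wild-type male culture the genotype comparison in control medium had a median of -0.379, 1 member above 0 and 5 past the threshold, and the sex comparison a median of 0.232, 3 members below 0 and 2 past the threshold. The genotype difference in the thyroxine effect on day 7 then had a median of 0.115, and the day difference in the thyroxine effect in wild-type cells a median of 0 with 18 members below 0. When 1 pair was left out, the median ran from -0.34 to 0.055 with 19 to 34 members below 0 for that last comparison, from -0.26 to -0.0375 for the day difference over both genotypes, and from 0.115 to 0.465 for the genotype difference on day 7. The members past the threshold then numbered 0 to 3 on day 7, 0 to 2 for the genotype difference over both days (2 without the Twist1+/- female pair of day 3 or the wild-type female pair of day 7, Rtp4 and, in the second case, Ifit1 among them), and 0 to 1 for the thyroxine effect in each genotype. With the culture as a random block in place of the pair, 0 members passed in the genotype difference, as with the pair as a fixed or random block. Its median of 0.268 is the same under each block by the balance of the design. Over all settings the count over all tested genes ran from 0 to 202 for the genotype difference (8 as reported) and from 1 to 1945 for the day difference in control medium (1071 as reported). For the thyroxine effect it ran from 0 to 9 in wild-type cells and from 0 to 232 in Twist1+/- cells (2 and 27 as reported). No such range is given here for day 7 alone. The member counts with 1 pair left out were not set against the count over all tested genes in the same setting. Differences between 4 cultures limit every comparison of levels, and signal near the background limits the dimmest members. Comparisons that need the Twist1+/- pairs of day 7 gave no value without them.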
